A study of Mus musculus with 48 samples.

Results

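The combined injection of a GLP-1 receptor agonist and a CCK receptor agonist was examined in total RNA of the mouse dorsal vagal complex (DVC). The DVC is the hindbrain site, made up of the area postrema, the nucleus of the solitary tract and the dorsal motor nucleus of the vagus, where signals from the gut reach the brain. The libraries were taken by their labels: region DVC, RNA kind "input", and treatment combo or saline. This gave 6 of the 48 libraries of the series, 3 with the combination and 3 with saline. Total RNA here means RNA purified from 25 µL of the clarified homogenate, before ribosomes were pulled down from the remainder with an antibody to phosphorylated ribosomal protein S6 (the IP libraries).

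All animals were male C57/Bl6 mice of 9 weeks on standard chow, with no transgene or deletion named. They had been fasted for 6 h and were injected intraperitoneally with 10 µL per g. The saline group received vehicle. The AC3174 group received an exenatide-type GLP-1 receptor agonist, given in the protocol at 1 µg/kg. The AC170222 group received the CCK agonist of the study, given at 2.5 µg/kg. The treatment field of the labels writes that drug as AC710222, which the protocol lists at 2.5 or 10 µg/kg, so its dose is not certain. The combo group received both drugs. How much of each drug the combination held, how long after injection the brains were taken and how many mice each library stands for is not stated in the labels used here. Each group holds 3 libraries, and the labels do not say whether these are separate animals. The p-values therefore measure only the spread between these libraries, which may be technical.

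GLP-1 is released by enteroendocrine cells of the lower gut and by Gcg neurons of the nucleus of the solitary tract, and its receptor Glp1r raises cAMP through Gs. CCK is released from the upper gut after a meal and acts through Cckar on vagal afferents and on hindbrain neurons, a receptor that raises calcium through Gq. Both reduce food intake, and neurons of the DVC switch on immediate early genes such as Fos after either peptide.

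The 6 libraries held 43753523, 75404435 and 80618210 counts (saline 1 to 3) and 87948003, 29492622 and 35977831 counts (combo 1 to 3), so 2 of the 3 combination libraries were the shallowest of the 6. Genes with a count numbered 16569 to 17825. Replicates were not copies of each other: the chi-square per degree of freedom of their counts was 115.628 at the lowest. Their Pearson correlation on log2 CPM (with 2 added to the CPM) was 0.931 to 0.942. The common biological coefficient of variation of the 12 DVC inputs was 0.9177. The median standard error of a log2 difference was 0.189 for genes over 100 CPM (counts divided by the TMM-scaled library size), 0.332 for genes at 20 to 100 CPM, 0.676 at 5 to 20 CPM and 1.81 at 1 to 5 CPM. In the last class 52.7% of genes had a count of 0 in at least 1 of the 6 libraries.

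No gene passed the test between the combination and saline. Of 17477 genes tested, 0 (0%) had an adjusted p under 0.05 in edgeR's quasi-likelihood test, and the smallest adjusted p was 0.273. At an unadjusted p under 0.05 there were 450 genes higher (2.57%) and 490 lower (2.8%), 940 in all (5.38%). The 3 combination libraries lay above all 3 saline libraries for 778 genes (4.45%) and below them for 827 (4.73%), 1605 in all (9.18%). Limma-voom called 0 genes as well, with 1138 at an unadjusted p under 0.05, whereas DESeq2 called 107 genes higher and 162 lower. Of those 269 genes, 218 had a count of 0 in at least 1 of the 6 libraries and 51 in none. Among all tested genes such a count was found in 71.5% of those under 1 CPM. The share was 52.7% at 1 to 5 CPM and 8.82% at 5 to 20 CPM. The values below are therefore levels and differences in these libraries, and none of the genes named for this comparison passed the main test. These are bulk samples, in which fewer cells of a type and less RNA per cell cannot be told apart.

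**Figure D1:**
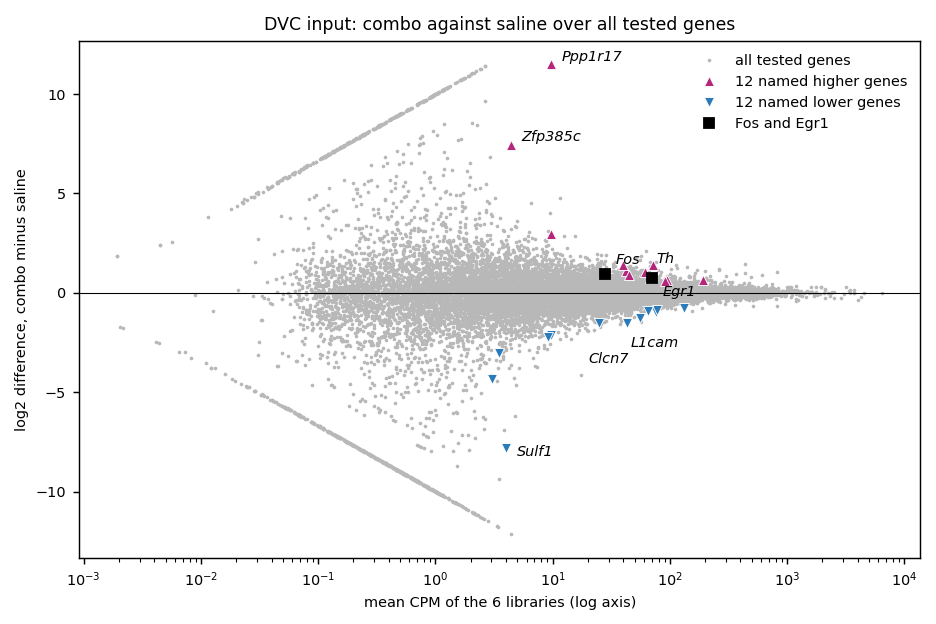
Log2 difference between combo and saline in DVC input (vertical axis) against the mean CPM of the 6 libraries (horizontal log axis) for all 17477 tested genes in grey, with the 12 named higher genes, the 12 named lower genes, Fos and Egr1 marked. The spread widens towards low CPM, and the oblique lines of points are genes with 0 counts in all 3 libraries of a group (315 in saline, 407 in combo).

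The genes of the 2 peptide systems were found at low level. Gcg, the precursor of GLP-1 (chr2:62474530-62483650, GRCm38), was at 1.7, 14 and 1.89 CPM in saline 1 to 3 and at 10.9, 1.94 and 17.8 CPM in combo 1 to 3. The groups overlapped, and the log2 difference was 0.80 ± 0.97 (SE; adjusted p = 1). Glp1r, the receptor (chr17:30901817-30940791), had 0 counts in all 3 saline libraries and was at 4, 0 and 0.781 CPM with the combination. Since 1 combination library was also at 0, the groups overlapped, and the adjusted p was 0.891 in the main test. DESeq2 called it (adjusted p = 0.0221). With the single drugs Glp1r was at 5.28, 2.33 and 0 CPM (AC3174) and at 0.952, 2.73 and 1.14 CPM (AC170222), so the saline group was the only one of the 4 with no read of it.

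Cck, the CCK precursor (chr9:121489824-121495694), was at 18, 13.5 and 10.4 CPM in saline and 25.9, 8.56 and 18.4 CPM with the combination, with a log2 difference of 0.33 ± 0.46. Cckar, the CCK receptor of vagal afferents and the area postrema (chr5:53697776-53707705), was at 0, 9.61 and 9.71 CPM in saline and 5.64, 1.43 and 5.55 CPM with the combination (log2 -0.61 ± 1.82). Cckbr, the second CCK receptor, was at 5.84, 4.4 and 9.78 against 10.9, 8.33 and 6.44 CPM (0.36 ± 0.62). Of the 5 genes, 4 had a positive value and none had groups that stood apart. Their median log2 difference was 0.36, beside -0.000623 over all tested genes.

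Fos, the transcription factor gene most used as a sign of neuronal activation, was higher in every combination library than in every saline library. It lies at chr12:85473890-85477273 on the plus strand. Fos was at 19.6, 23.6 and 14.2 CPM in saline 1 to 3 and at 44.3, 37.3 and 27.8 CPM in combo 1 to 3. The means were 19.1 ± 4.71 and 36.5 ± 8.28 CPM (SD, n = 3 each), a ratio of 1.91. The log2 difference was 0.93 ± 0.29 and did not pass the test over all genes (adjusted p = 0.891). Fos was also above every saline library in the 3 AC3174 libraries (25.4, 35.3 and 41.9 CPM) and in the 3 AC170222 libraries (48.1, 34.4 and 40.8 CPM).

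**Figure D2:**
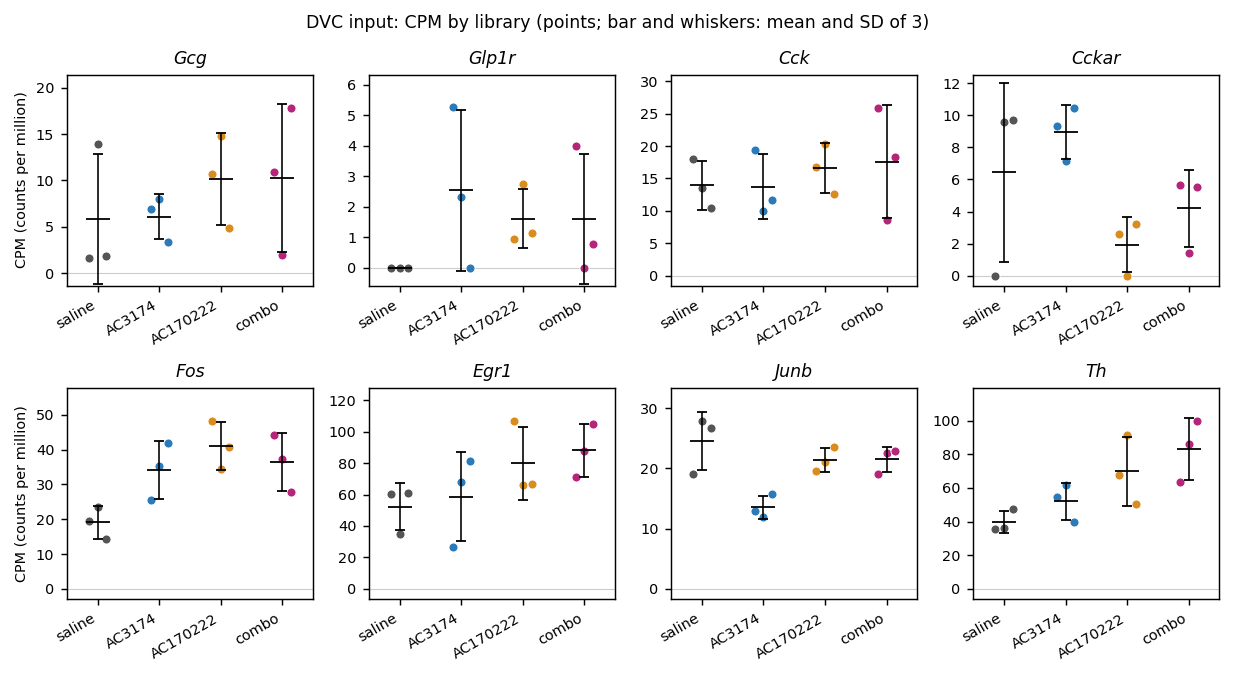
CPM in each of the 12 DVC input libraries (points) for 8 genes of the peptide systems, the immediate early group and catecholamine synthesis, by treatment, with the mean and SD of 3 libraries. The lowest of the 9 drug-treated libraries for Fos is at 25.4 CPM and the highest saline library at 23.6 CPM, while Gcg, Cck and Cckar overlap between saline and combo.

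Egr1, a zinc finger transcription factor that many stimuli induce with Fos, was at 60.6, 34.8 and 61.2 CPM in saline and 71.4, 87.9 and 105 CPM with the combination. The groups did not overlap, and the log2 difference was 0.76 ± 0.38 (adjusted p = 0.891). It was 0.14 ± 0.43 when the set of libraries, read from the well numbers in the column names, was added to the fit. Of these 6 libraries only saline 3 and combo 1 share a set across the groups, so set and treatment can hardly be told apart. Jun was at 82.8, 76.1 and 69.8 against 79.8, 89.8 and 82.2 CPM (log2 0.14 ± 0.25). Junb was at 19.1, 27.8 and 26.7 against 19, 22.5 and 22.9 CPM (-0.19 ± 0.28). Neither partner of Fos in the AP-1 complex stood apart between the groups. Jund, at 15.8, 85.3 and 130 against 156, 121 and 140 CPM, took its difference of 0.85 ± 0.75 mostly from saline 1, without which it was 0.37.

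The other immediate early genes were at or near 0 CPM in some libraries or did not differ beyond their spread. Replicates could lie far apart: Fosl1 was at 7.54 CPM in combo 1 and 0 in combo 3, and Nr4a3 at 9.82 and 0.0539 CPM. Fosb, Fosl1 and Fosl2 each had at least 1 library at or under 0.1 CPM and values of 1.56 ± 2.28, 1.44 ± 2.22 and 0.47 ± 2.12. Nr4a1, an orphan nuclear receptor induced by cAMP and calcium, was at 16.2, 13.6 and 10 against 16.7, 9.35 and 12.2 CPM (-0.06 ± 0.64), and Nr4a2 was at 12.6, 20.4 and 21.4 against 19.1, 12.6 and 27.9 CPM (0.13 ± 0.48). Nr4a3 (0.27 ± 1.89) and Egr4 (0.40 ± 1.73) stayed under 10 CPM in the 6 libraries, Egr3 had reads in saline 2 only, and Egr2 had 0 counts in all 6 and was not tested. Among the 7 AP-1 genes 6 had a positive value. Their median of 0.85 is the value of Jund, which rests mostly on saline 1. Only Fos had an unadjusted p under 0.05, beside 2.57% of all tested genes that were higher at that level. Among the 6 tested Egr and Nr4a genes the median was 0.20. Of 31 further activity-induced genes none had an unadjusted p under 0.05, 15 were positive, 16 negative and the median was 0.00. Of the 24 with a mean of at least 5 CPM in a group, the lowest value was that of Btg2, an antiproliferative early gene, at 26.9, 22 and 14.3 against 15.2, 1.83 and 5.98 CPM (-1.45 ± 0.69), and the highest that of Dusp5, a MAP kinase phosphatase, which rests on 23.8 CPM in combo 2 (1.59 ± 1.10). Under that level the values reached further: Npas4, a neuronal activity-dependent transcription factor, was at 3.49, 0.93 and 0 against 0.266, 0 and 0 CPM (-3.97 ± 2.80). Atf3, a stress-induced transcription factor, was at 0, 2.28 and 0.16 against 3.28, 3.81 and 4.04 CPM, with groups that did not overlap (2.19 ± 1.67). Of the 31 genes it was the 1 without overlap on the higher side, and 3 lay lower without overlap. Over all tested genes these shares were 4.45% and 4.73%. The 3 lower ones were Homer1 (-0.88 ± 0.49), Crem (-0.65 ± 0.48) and Inhba (-0.70 ± 0.84).

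Fos and tyrosine hydroxylase (Th) are both genes whose promoters are known to bind CREB, the factor that cAMP signalling activates, and the 250 bases before their RefSeq start are shown for that reason (GRCm38.p6, 5′ to 3′ along the gene, with every match to the core of the cAMP response element, TGACG on either strand, in capitals). The Fos window is chr12:85473640-85473889 on the plus strand and the Th window is chr7:142899996-142900245 on the minus strand.
Fos: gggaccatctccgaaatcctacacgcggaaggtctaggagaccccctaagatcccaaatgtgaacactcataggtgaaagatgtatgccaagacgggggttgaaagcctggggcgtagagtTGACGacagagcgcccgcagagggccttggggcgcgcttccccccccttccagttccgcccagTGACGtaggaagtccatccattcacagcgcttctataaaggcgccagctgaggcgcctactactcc
Th: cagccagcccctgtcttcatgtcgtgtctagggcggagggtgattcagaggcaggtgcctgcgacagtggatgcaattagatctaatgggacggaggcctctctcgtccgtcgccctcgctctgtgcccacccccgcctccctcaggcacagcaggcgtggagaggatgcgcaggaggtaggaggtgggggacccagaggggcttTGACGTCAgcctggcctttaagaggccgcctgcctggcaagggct

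The Fos window held 2 copies of the core and no full element (TGACGTCA), and the Th window held 1 full element, which contains the core on both strands. Across the 32851 RefSeq promoter windows of this length, 17.8% held the core on either strand and 1.55% the full element. TGANTCA, the AP-1 site, was found in 6.75% of windows and 1 time in that of Th. Of the genes named below, 9 of the 12 higher ones had a window and 5 of those held the core. Of the 12 lower ones, 10 had a window and 4 held it. These are counts of genes with the core in any of their windows. The percentages are shares of single windows, so the 2 cannot be compared directly. A match is a description of the letters and not a measured site.

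Th, the rate-limiting enzyme of catecholamine synthesis, was at 35.5, 36.2 and 47.6 CPM in saline and at 63.6, 86.1 and 99.7 CPM with the combination. The groups did not overlap, the means were 39.7 ± 6.78 and 83.1 ± 18.2 CPM (ratio 2.09) and the log2 difference was 1.06 ± 0.27 (adjusted p = 0.891). The Ensembl model of Th (chr7:142892752-142931128, minus strand) reaches past the RefSeq start used above. Dbh, which turns dopamine into noradrenaline, did not go the same way, at 29.7, 20.9 and 11.7 CPM in saline and 21.6, 5.03 and 0.754 CPM with the combination. Slc6a2, the noradrenaline transporter, was at 2.08, 0 and 18.7 against 0, 0.034 and 0 CPM. Of the 12 tested catecholamine and serotonin genes 5 were positive and 7 negative, with a median of -0.03.

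Markers of DVC cell groups were present. Chat, which makes acetylcholine in vagal motor neurons, was at 61.2, 177 and 45.2 against 62.6, 95 and 108 CPM. Lmx1b, a homeobox gene of hindbrain neurons, was higher in all 3 combination libraries (3.79, 2.11 and 5.12 against 1.3, 0.157 and 0.381 CPM; log2 2.58 ± 1.00), and Tbx20, a T-box gene of hindbrain motor neurons, in the same way (13.5, 2.92 and 8.6 against 2.65, 0.825 and 0.775 CPM; 2.56 ± 1.06). The 11 tested identity factors had a median of 0.42, with Hand2 at 0 in all 6 libraries. The 15 tested Hox genes, which mark hindbrain position, had a median of 0.26 and ranged from Hoxa2 (-0.81 ± 0.41) to Hoxb7 (1.30 ± 1.60). Hoxc5 was at 22.6, 30.1 and 9.6 against 42.4, 32.1 and 60 CPM (1.11 ± 0.41), its model overlaps its neighbours in the cluster, and without the 3 libraries with over 1000 CPM of Ttr (saline 3, AC3174 1 and combo 3, left out after seeing the data) it was 0.50.

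By the rule for naming, 631 genes at 5 CPM or more in a group lay higher in every combination library than in every saline library (5.28% of 11956 such genes) and 607 lay lower (5.08%), and the 12 of each direction with the smallest p are given here. They kept their direction in all 15 alternative fits. As they were chosen for groups that do not overlap in these same libraries, this is no separate support. DESeq2 was the only one of those fits that called any of them, and it called all 24. Nadk2, the mitochondrial NAD kinase (chr15:9071260-9110891), was at 34.9, 38.3 and 45.8 CPM in saline and 113, 92.5 and 109 CPM with the combination. This was a ratio of 2.64 between the means, and the log2 difference of 1.40 ± 0.27 had an adjusted p of 0.732. Cnih2, an auxiliary subunit of AMPA receptors, was at 67.7, 78.5 and 73.8 against 117, 112 and 121 CPM (0.67 ± 0.15). Both genes had narrow groups that stood well apart. Stard7, which carries phosphatidylcholine to mitochondria, was at 135, 160 and 159 against 224, 246 and 231 CPM (0.63 ± 0.16).

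Among the other higher genes were regulators of RNA: the splicing factors Srsf10 (45.3, 61.4 and 45.1 against 81.9, 87.2 and 88 CPM; 0.76 ± 0.18) and Hnrnpll (70.4, 75.1 and 73.7 against 94.3, 121 and 115 CPM; 0.59 ± 0.15), the elongation factor component Mllt1 (13.3, 23.9 and 29 against 54.2, 69.5 and 49.4 CPM; 1.39 ± 0.35, 0.88 with the library set in the fit) and the translation initiation factor Eif2d (0.89 ± 0.23). The uncharacterised 6030458C11Rik (1.10 ± 0.26) and AU041133 (2.94 ± 0.62, at 1.15, 1.56 and 4 against 16.4, 22.4 and 12.6 CPM) completed the genes with reads in every library. Zfp385c was at 0, 0.0262 and 0.111 CPM in saline and 7.57, 13.1 and 5.44 CPM with the combination. Ppp1r17, a phosphatase inhibitor of cerebellar Purkinje cells, was at 0, 0 and 0.0123 against 5.84, 48.3 and 4.1 CPM, and its highest library, combo 2, is also that with the most cerebellar RNA. For the last pair the fitted log2 value depends on the prior count and is no measure of size.

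Clcn7, the chloride and proton exchanger of lysosomes (chr17:25133391-25162104), had the smallest p of the lower genes. It was at 35.5, 48.9 and 26.5 CPM in saline and 12.9, 13.7 and 12.4 CPM with the combination, a 2.84-fold lower mean (log2 -1.51 ± 0.29, adjusted p = 0.732). L1cam, a neuronal adhesion molecule (chrX:73853778-73896105), was at 73.3, 62.1 and 56.8 against 22.9, 21.1 and 22.4 CPM, with a log2 difference of -1.53 ± 0.33 (-0.99 with the library set in the fit). In both genes the 3 combination libraries lay within a narrow band below the lowest saline value. Phf2, a histone demethylase, was at 15.8, 18.9 and 12.6 against 3.79, 2.82 and 4.37 CPM (-2.10 ± 0.46), and Lnx1, a ubiquitin ligase, at 16.1, 15.9 and 13.7 against 4.9, 1.12 and 3.66 CPM (-2.23 ± 0.52).

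Nuclear and RNA-processing proteins were also among the lower genes: Pnn, a splicing-speckle protein (108, 75.3 and 121 against 60.5, 41.8 and 54 CPM; -0.96 ± 0.20), the splicing-associated Sugp2 (-0.87 ± 0.19), the cohesin subunit Smc1a (79.4, 97.7 and 76.7 against 34.9, 41.4 and 57 CPM; -0.93 ± 0.23) and Dis3l, the nuclease of the cytoplasmic exosome (-1.26 ± 0.30). Washc2, a subunit of the endosomal WASH complex, was at 177, 172 and 146 against 87.2, 132 and 70.5 CPM (-0.78 ± 0.20). Sulf1, an extracellular sulfatase that trims heparan sulfate, was at 7.12, 14.9 and 2.04 CPM in saline and at 0, 0 and 0.108 CPM with the combination, and was at 5.21 to 15.5 CPM in all 6 single-drug libraries. The remaining lower genes were Gm26691, whose model spans other genes (6.2 ± 0.954 against 0.767 ± 0.279 CPM), and ENSMUSG00000074674, which has no symbol in the annotation (-4.35 ± 1.01).

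**Figure D3:**
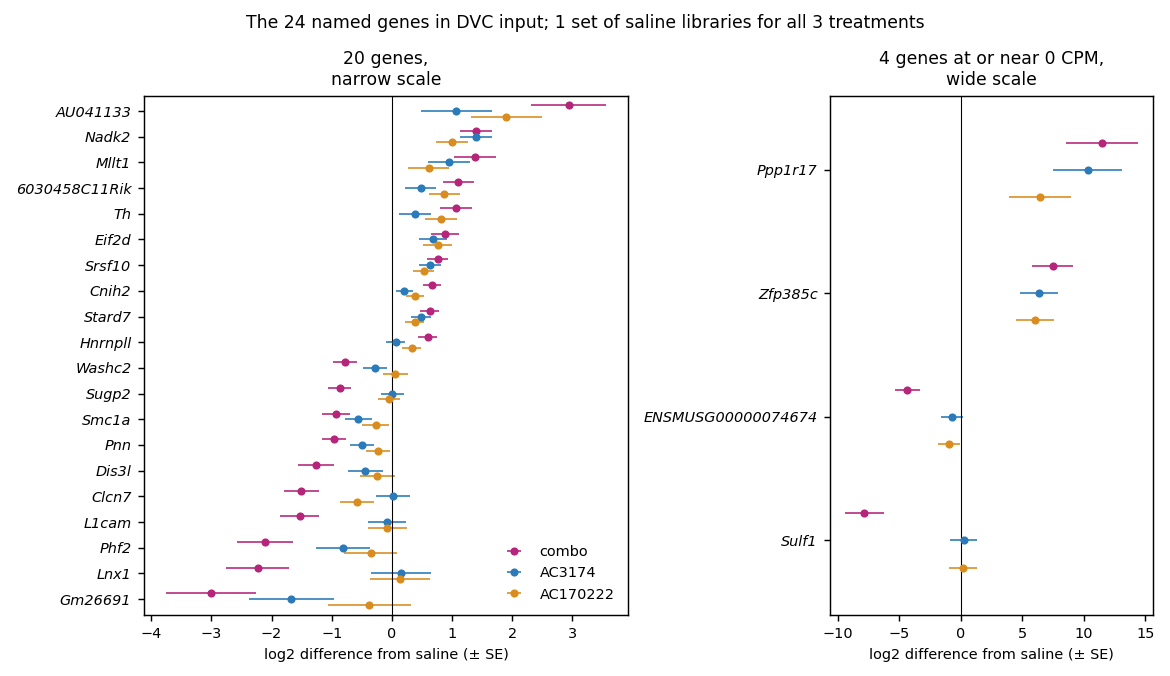
Log2 difference from saline with its SE for the 12 higher and 12 lower named genes in DVC input (vertical axis: genes; horizontal axis: log2 difference, on a narrow scale for 20 genes and a wide one for 4), with the combination and both single drugs set against the same 3 saline libraries. Nadk2 has values of 1.40 with the combination and 1.40 with AC3174, while L1cam and Clcn7 are near or below -1.5 with the combination and between -0.57 and 0.02 with the single drugs.

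The smallest p over all genes belonged to 2 genes under 5 CPM, named after their values were seen. Alox12b, a lipoxygenase, was at 1.72, 7.83 and 3.49 CPM in saline and had 0 counts in all 3 combination libraries, and it was at 2.85 to 8.3 CPM in the 6 single-drug libraries (adjusted p = 0.273). Ccn1, a matricellular growth factor-inducible gene, had 0 counts in all 3 saline libraries and was at 9.14, 2.38 and 3.18 CPM with the combination (adjusted p = 0.273), as well as at 1.18 to 3.95 CPM in the 6 single-drug libraries. Zfp26 was at 12.6, 16.5 and 18 CPM in saline and 0, 6.8 and 0 CPM with the combination. It was the 1 gene called when combo 2 was left out (log2 -13.04 ± 1.05, adjusted p = 0.00861), and with all libraries its adjusted p was 0.928.

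No listed gene downstream of the 2 receptors passed the test. Of 24 tested genes of Gs and cAMP signalling, 2 were higher and 1 lower at an unadjusted p under 0.05. Over all tested genes these shares were 2.57% and 2.8%. The groups did not overlap for 2 higher and 2 lower members, beside 4.45% and 4.73% of all tested genes. The median of the list was 0.04. Prkacb, a catalytic subunit of protein kinase A, was at 677, 637 and 682 CPM in saline and 808, 832 and 780 CPM with the combination (log2 0.28 ± 0.12). Prkar2b, a regulatory subunit, was at 41.6, 89.8 and 60.5 against 117, 82 and 104 CPM (0.66 ± 0.28), and Pde4a, a phosphodiesterase that breaks down cAMP, at 145, 150 and 146 against 134, 103 and 101 CPM (-0.38 ± 0.15). The groups stood apart for Prkacb and Pde4a and overlapped for Prkar2b. They also stood apart for Prkar2a, a regulatory subunit (0.61 ± 0.31), and for Crem (-0.65 ± 0.48). The extremes of the list were Prkaca (1.18 ± 0.69), at 35.7 CPM in saline 1 and 152 CPM or more in the other 5 libraries, and Adcy6 (-0.66 ± 1.59).

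Of 21 genes of Gq and calcium signalling none had an unadjusted p under 0.05, with a median of 0.14. The smallest p was that of Ppp3ca, the calcineurin catalytic subunit (237, 365 and 448 against 484, 487 and 529 CPM; 0.51 ± 0.27). Among the 20 with a mean of at least 5 CPM in a group, Itpr1 had the highest value (0.93 ± 0.75) and Itpr3 the lowest (-1.63 ± 1.50), both calcium channels of the endoplasmic reticulum. The remaining member, the phospholipase Plcb2, was at 0, 0 and 1.86 against 5.69, 2.04 and 1.21 CPM (2.26 ± 2.82). Of 23 genes of the mTOR and S6 pathway none had an unadjusted p under 0.05, with a median of -0.02. Rps6 itself, the protein whose phosphorylated form was used for the pull-down, was at 120, 114 and 134 against 140, 97.5 and 122 CPM.

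Of 27 tested appetite receptors, 2 were higher and 1 lower at an unadjusted p under 0.05, with a median of 0.07. Over all tested genes these shares were 2.57% and 2.8%. Adra2a, an adrenergic autoreceptor, was at 5.53, 1.62 and 8.78 against 10.4, 19.9 and 21.2 CPM (1.69 ± 0.69, and 0.54 with the library set in the fit). Ntsr1, a neurotensin receptor, was at 1.59, 1.02 and 2.37 CPM in saline and at 0 in all 3 combination libraries, and Htr3a, a serotonin-gated channel, was at 0 in saline and at 0.474, 0 and 3.88 CPM with the combination. Of the 27, 15 had a mean of at least 5 CPM in a group. Among those under that level, Gfral, the receptor for GDF15, was at 1.28, 6.2 and 0 against 7.68, 4.18 and 0 CPM, and Calcr, the calcitonin receptor, at 0.619, 6.82 and 0 against 6.62, 0 and 8.08 CPM. None of 23 DVC neuropeptide genes had an unadjusted p under 0.05 (median 0.11), with Tac1, the substance P precursor, at 46.3, 42.8 and 28.2 against 65.8, 30.1 and 26.8 CPM. Nor did any of 10 genes of prohormone processing, where Pcsk1 took its value of 0.95 ± 0.58 from 41.8 CPM in combo 2 and Pcsk2 was lowest (-0.40 ± 0.30).

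**Figure D4:**
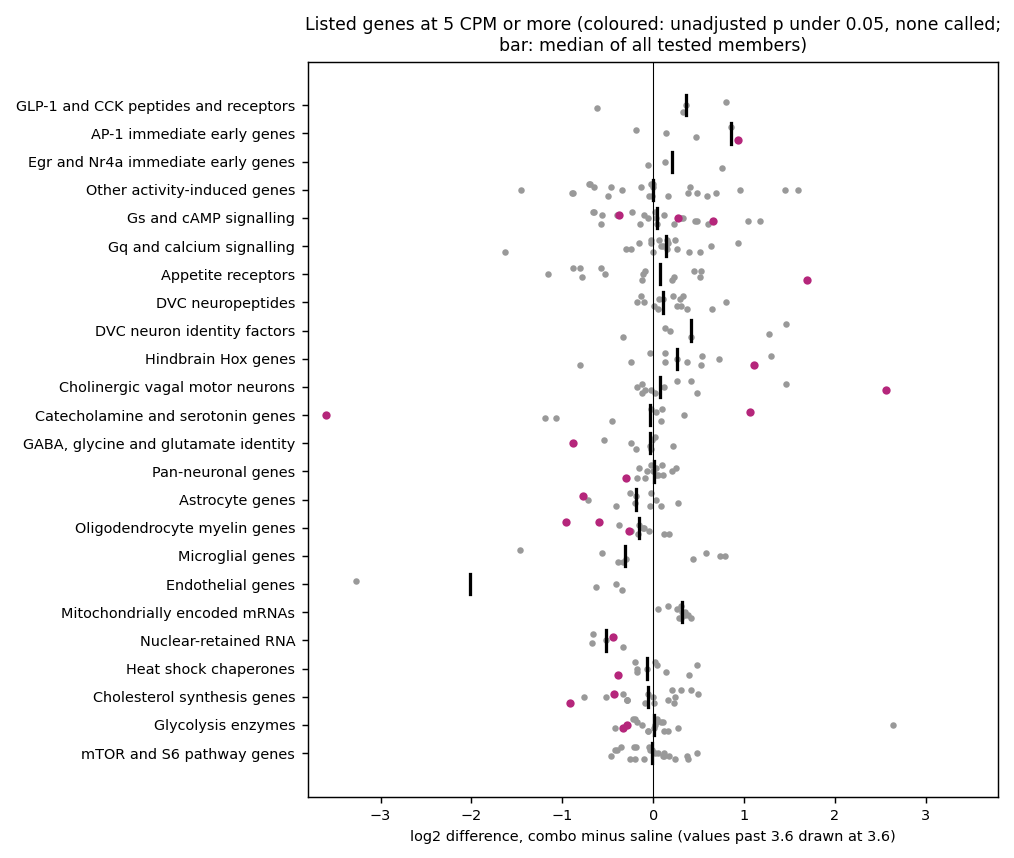
Log2 difference between combo and saline (horizontal axis) for the members of 24 gene lists at 5 CPM or more in either group (points, coloured at an unadjusted p under 0.05) and the median of all tested members (bar). The medians of the Gs, Gq, mTOR and pan-neuronal lists lie between -0.02 and 0.14. Further from 0 are the DVC neuron identity factors (0.42), the peptides and receptors (0.36) and the nuclear-retained RNAs (-0.52), among others. The median of the AP-1 genes is 0.85, which is the value of Jund. That of the endothelial genes, of which 4 of 11 reach 5 CPM, is -2.02.

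Myelin genes mostly had small negative values. Of 12, 10 had a negative value, with a median of -0.16. At an unadjusted p under 0.05, 3 were lower and 0 higher, beside 2.8% and 2.57% of all tested genes. The groups did not overlap for 3 lower members, beside 4.73% of all tested genes. Gjc3, a connexin of oligodendrocytes, was at 125, 94.9 and 106 CPM in saline and 65, 66.6 and 84.6 CPM with the combination (-0.59 ± 0.17). Myrf, the transcription factor of myelination, was at 46.3, 33.8 and 72.2 against 25.1, 23.8 and 29.4 CPM (-0.96 ± 0.32). The groups stood apart for both, but the summed level of the list overlapped, at 7676, 9550 and 8387 against 7535, 8018 and 6560 CPM. Neuronal, astrocyte and microglial lists had medians of 0.01, -0.19 and -0.31, with Elavl4, an RNA-binding protein of neurons (-0.30 ± 0.12), and Slc1a2, the astrocytic glutamate transporter (-0.77 ± 0.34), at an unadjusted p under 0.05. Slc6a5, the glycine transporter of inhibitory hindbrain neurons, was at 99.7, 56.9 and 82.1 against 56.3, 48.9 and 24.3 CPM (-0.88 ± 0.33, and -0.57 without the 3 libraries rich in Ttr).

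Endothelial genes had negative values in 10 of 11 members, with a median of -2.02, and none had an unadjusted p under 0.05. Most members were low, and the 4 with a mean of at least 5 CPM in a group were Slco1a4 (-3.27 ± 2.06), Ly6c1 (-0.62 ± 0.63), Plvap (-0.41 ± 0.24) and Esam (-0.34 ± 1.43). The summed level of all 11 was 76.3, 50.7 and 83.3 CPM in saline and 41, 38.7 and 36.7 CPM with the combination, so the groups did not overlap. The largest member was Plvap, the diaphragm protein of fenestrated capillaries (32.1, 25.1 and 33 against 19.3, 25.7 and 22.7 CPM). Slco1a4, a transporter of the blood-brain barrier, was at 15.8, 1.48 and 19.7 against 0, 1.29 and 2.56 CPM. The 5 red blood cell genes all had negative values (median -0.56), with summed levels of 73.3, 200 and 237 against 93.7, 164 and 79.6 CPM.

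RNA of neighbouring tissue differed from library to library. The 9 choroid plexus genes summed to 59.4, 63.5 and 1936 CPM in saline 1 to 3 and to 373, 16.8 and 1259 CPM in combo 1 to 3, with Ttr the largest member in each. The 10 cerebellar genes summed to 367, 272 and 272 against 348, 1003 and 289 CPM, and in combo 2 Car8 was at 254 CPM, Calb1 at 385, Cbln3 at 48.3 and Gabra6 at 14.1, the last at 0 in the other 5 libraries. Of these 10 genes 9 were tested, 8 of them with positive values. The part of this RNA in the results given beside it was not tested. Hypothalamic genes summed to 18.5 to 37.3 CPM in saline and 21.6 to 47 CPM with the combination. Of these, Npy, a neuropeptide that DVC neurons also make, was at 12.4 to 19.7 CPM in saline and 7.03 to 25.6 CPM with the combination. Of the defining genes Sim1 was at 0 in all 6 libraries.

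**Figure D5:**
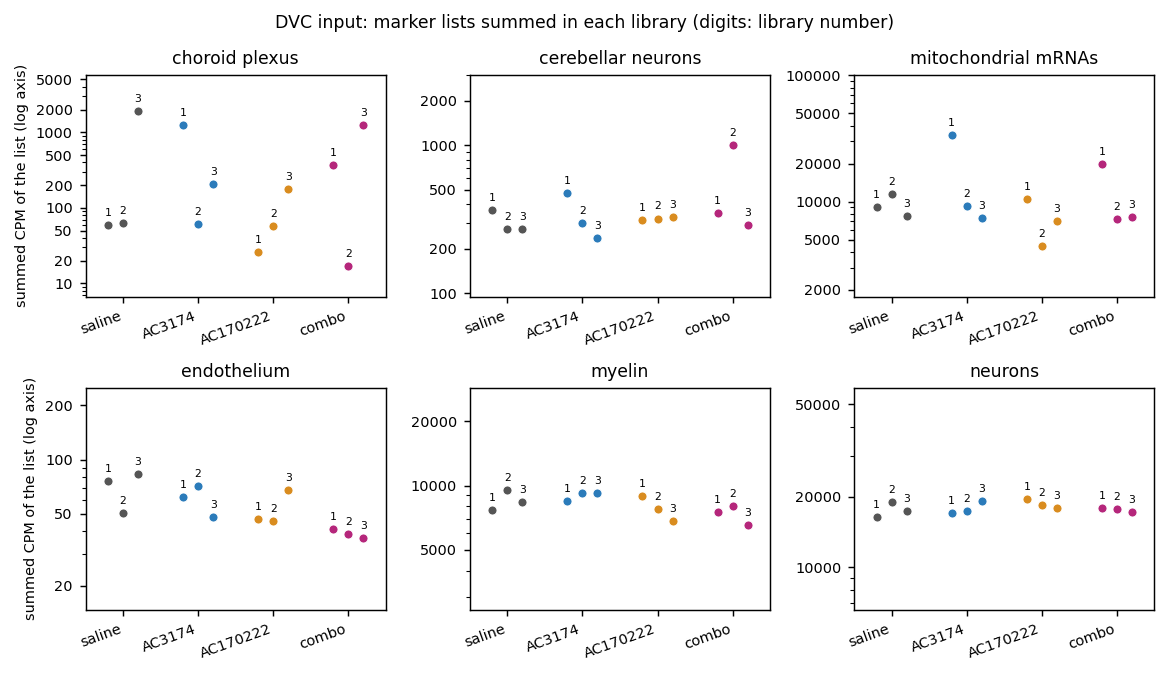
Summed CPM of 6 marker lists in each of the 12 DVC input libraries (vertical log axis, a scale of its own in each panel; digits give the library number), by treatment. Choroid plexus RNA spans 16.8 to 1936 CPM without regard to treatment, combo 2 stands alone in cerebellar RNA at 1003 CPM, and the 3 combo libraries are the lowest of the 12 in endothelial RNA.

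The 13 mitochondrially encoded mRNAs all had positive values (median 0.32), which rest on combo 1: their summed level was 9018, 11523 and 7628 CPM in saline and 19828, 7288 and 7537 CPM with the combination. The 5 nuclear-retained RNAs all had negative values (median -0.52), with Neat1 at 131, 105 and 88.6 against 77.7, 80.3 and 81.5 CPM (-0.44 ± 0.18). Malat1 was at -0.34 ± 0.22 and Meg3 at -0.67 ± 0.33, and the combination and saline groups overlapped for the summed level.

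Among housekeeping and stress pathways, Hspa8, the constitutive heat shock chaperone (chr9:40800984-40810087), had the narrowest groups: 1373, 1406 and 1405 CPM in saline and 1070, 1064 and 1076 CPM with the combination. Its log2 difference was -0.38 ± 0.10 (adjusted p = 0.891 in the main test, 0.00947 in DESeq2). It was the only one of 11 heat shock genes at an unadjusted p under 0.05, and the list's median was -0.07. Of 19 cholesterol synthesis genes 2 had an unadjusted p under 0.05, Sc5d, the sterol C5 desaturase (92.2, 63.8 and 79.3 against 35, 58 and 31.6 CPM; -0.92 ± 0.26), and Insig1 (-0.43 ± 0.19). Of 19 glycolysis genes 2 did as well, the hexokinase Hk1 (410, 410 and 501 against 344, 344 and 359 CPM; -0.33 ± 0.12) and Eno1 (-0.29 ± 0.12), while Hk2 was at 0.309, 5.67 and 1.14 against 13.2, 19 and 12.4 CPM (2.64 ± 1.42). Both lists had medians near 0 (-0.05 and 0.01), and over all tested genes 2.8% were lower at an unadjusted p under 0.05. The circadian and glucocorticoid-responsive lists, with 16 genes each, had none at an unadjusted p under 0.05, with Per3 at -0.99 ± 0.63 and Dusp1 at 0.59 ± 0.29.

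The next question was whether the combination differed from each drug alone. It did not pass the test for any gene: 0 of 17477 genes (0%) were called against AC3174 (793 at an unadjusted p under 0.05, smallest adjusted p 0.286) and 0 (0%) against AC170222 (832, 0.222). Fos differed by 0.09 ± 0.29 from AC3174 and by -0.17 ± 0.29 from AC170222, and Egr1 by 0.59 ± 0.38 and 0.14 ± 0.38. Th differed by 0.67 ± 0.27 and 0.25 ± 0.27. Side by side, and against the same 3 saline libraries, Fos was at 0.84 ± 0.29 with AC3174, 1.10 ± 0.30 with AC170222 and 0.93 ± 0.29 with both. Th was at 0.39 ± 0.27, 0.81 ± 0.27 and 1.06 ± 0.27, and Egr1 at 0.17 ± 0.38, 0.61 ± 0.38 and 0.76 ± 0.38. A p that misses the threshold does not show that the treatments act alike.

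The genes with the smallest p against AC3174 were Ncoa5, a nuclear receptor coactivator (69, 75.9 and 58.1 CPM with the combination against 32.7, 30.2 and 37.5), Poli (2.46 ± 0.63) and Arhgef15 (1.23 ± 0.32) on the higher side. On the lower side were Aldh1a1, an enzyme of retinoic acid synthesis (119, 156 and 117 against 265, 222 and 206 CPM; -0.82 ± 0.15), Afg1l (-1.38 ± 0.26) and Clcn7 (-1.52 ± 0.29). Against AC170222 they were Hmgcll1, an HMG-CoA lyase of ketone body synthesis (26.7, 33.4 and 28.2 against 9.71, 7.98 and 6.25 CPM; 1.88 ± 0.30, adjusted p = 0.396), Rin2 (1.35 ± 0.25) and Dusp26 (0.49 ± 0.10) on the higher side, and Snph (-0.94 ± 0.18), Alox12b and Sulf1 on the lower. Hmgcll1 was at 19, 29 and 28.7 CPM in saline, so that the AC170222 group was the one that stood apart. Clcn7 differed from AC170222 by -0.93 ± 0.29, and L1cam from AC3174 by -1.45 ± 0.33 and from AC170222 by -1.46 ± 0.33. Clcn7 and L1cam had been named for low combination values against saline, which these differences use again.

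Because the title of the series speaks of synergy, the combination was also compared with the sum of the 2 single-drug differences on the log2 scale. For 0 of 17477 genes (0%) did this non-additivity pass the test, with 809 at an unadjusted p under 0.05 and a smallest adjusted p of 0.532. The median standard error of this contrast was 0.824. For Fos the combination fell short of the sum by 1.01 on the log2 scale (-1.01 ± 0.41, adjusted p = 1), and for Nadk2 by nearly the same amount (-1.002 ± 0.37, adjusted p = 0.972). For Th the value was -0.14 ± 0.38 and for Egr1 -0.03 ± 0.54. L1cam was further down than the sum (-1.37 ± 0.45), as was Clcn7 (-0.95 ± 0.40), and neither passed the test. Both had been named for low combination values against saline in these same libraries. The contrast uses those values again, so it gives no separate support for non-additivity in these genes. The named genes of this contrast were Itpr3, which was at 0 to 0.0842 CPM in all 6 single-drug libraries and at 0.701 to 7.71 CPM in saline and combination libraries, Hmgcll1 (1.77 ± 0.41), Mlxip (2.14 ± 0.55), Vps26a (-0.77 ± 0.18), Alox12b and Sulf1.

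The response to the combination in the DVC was then set against that in total RNA of the mediobasal hypothalamus (MBH), with CPM here on column totals. The difference between the regions was called for 3 of 18576 genes (0.0161%), and in each a group had 0 counts in all 3 libraries. In the same edgeR test within MBH total RNA, 0 of 16622 genes were called between combination and saline (smallest adjusted p 0.388). Fam167a was at 2.1, 0.61 and 3.11 CPM with the combination and at 0 with saline in the DVC, against 7.08, 4.96 and 1.92 and 4.12, 40.8 and 6.15 CPM in the MBH (adjusted p = 0.0182). Zfp41 was at 0 in all 3 MBH saline libraries and at 15.6, 18.5 and 7.08 CPM with the combination there, against 25.7, 28.2 and 9.31 and 27, 6.07 and 17.9 CPM in the DVC (adjusted p = 0.0182). Cgnl1, a tight junction protein, likewise was at 0 in MBH saline, with 3.34, 3.38 and 4.23 CPM with the combination there (adjusted p = 0.0182). None of the 3 calls was left when DVC saline 1, saline 3, combo 1 or combo 3, or MBH combo 1, was left out. Th was at 1.06 ± 0.27 in the DVC and -0.67 ± 0.36 in the MBH (difference 1.73 ± 0.47, adjusted p = 0.499), and the difference for Fos was 0.77 ± 0.50 (adjusted p = 0.732).

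Last, the response in total RNA was set against that in RNA on ribosomes with phosphorylated S6 from the DVC. The difference was called for 7 of 18465 genes (0.0379%), all higher in the IP. In the same edgeR test within the DVC IP libraries, 0 of 15815 genes were called between combination and saline (smallest adjusted p 0.277). Nr4a1 was at 11.6, 5.77 and 18.1 CPM in the combination IP libraries and at 0 in the 3 saline IP libraries, while in total RNA both groups lay between 9.32 and 16.7 CPM (adjusted p = 0.000662). Mlh3, a DNA mismatch repair gene, was at 25.5, 47.8 and 20.3 against 0, 0 and 0 CPM in the IP (adjusted p = 0.000662), with 16.5, 20.6 and 27.1 against 14.7, 16.8 and 4.45 CPM in total RNA. Rfx7, Hgh1, Fam135a, Lrp8os3 and Mtmr10 had the same form, with saline IP libraries at 0 or, in 1 library each of Fam135a and Lrp8os3, at 0.00607 CPM. This fit treats input and IP as separate libraries, although both were made from 1 homogenate. With the homogenate as a replicate block (input and IP of 1 number), 0 genes were called. At an unadjusted p under 0.05 there were then 472 genes, against 1764 in the reported fit. Without that block, the 7 calls became 67 without saline IP 1 and 82 without saline IP 2, so their number also turns on single libraries. For Fos the difference between the RNA kinds was -0.39 ± 2.31 and for Th -0.54 ± 1.68, and neither was called.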

How the data were processed

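The deposited table holds raw read counts for 38293 Ensembl genes, which were made by the authors with TopHat2 2.0.11 and HTSeq 0.6.1p1 on GRCm38, per the submitters' processing notes. Per the labels' protocols, cDNA was made with a SMART-Seq v4 kit and libraries with Nextera XT, which keeps no strand, so reads of overlapping and antisense genes cannot be told apart. The authors' annotation and counting parameters are not stated in the notes used here. Amplified copies are counted as reads, so floors cover counting error only. Symbols and positions came from GENCODE M21 (36429 identifiers matched), promoters from RefSeq.

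The 12 DVC inputs (29492622 to 95079227 counts) were fitted together with edgeR 4.0.16 (R 4.3.3; TMM, filterByExpr, quasi-likelihood F test, Benjamini-Hochberg adjustment, calls at an adjusted p under 0.05). Both interactions were fitted over 24 libraries by group, without pairing the input and IP of 1 homogenate. A value after ± is an SD for CPM and an SE for a log2 difference. Alternatives used DESeq2 1.42.0, limma 3.58.1 (voom), other filters and scaling, a replicate block, the library set, and leaving out each library. The test script was checked on simulated counts. Deviations of same-numbered combo and saline libraries from their group means had r of -0.0587, -0.051 and 0.0276, so the numbers were not taken to pair the samples.

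Named genes have a mean of at least 5 CPM in a group, no overlap between combo and saline, and the 12 smallest p in each direction; to these come the members of the GLP-1, CCK and immediate early lists, the 3 smallest p per direction of other comparisons, and the smallest p and extremes of the other lists that are described; a few genes that the rule names are not reported here. The members and the 38 gene lists were chosen with earlier results of these data known. Lists not described in the results are given in the closing section.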

Additional observations from a re-analysis of the deposited data

Results flagged for a closer look

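The 10 results below are genes for which the combination effect differed between 2 kinds of sample by a test of the difference itself (edgeR interaction term). Between DVC and MBH total RNA the fitted log2 difference of the effects was 11.87 for Fam167a, -12.41 for Zfp41 and -10.67 for Cgnl1. Between DVC IP and DVC total RNA it was 13.83 for Mlh3, 13.32 for Nr4a1, 13.73 for Rfx7, 14.81 for Fam135a, 13.74 for Hgh1, 11.02 for Lrp8os3 and 16.11 for Mtmr10. Each of these sizes rests on a saline group at or near 0 counts and depends on the prior count of the fit. Fam167a had 0 counts in the 3 DVC saline inputs, Zfp41 and Cgnl1 in the 3 MBH saline inputs, and the other 7 genes in at least 2 of the 3 DVC saline IP libraries. Within MBH total RNA and within the DVC IP, 0 genes were called between combination and saline. No cause was tested.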

How the results depend on the processing

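The combination against saline gave 0 calls in every alternative run but 2: DESeq2 called 269 genes and the fit without combo 2 called 1, and leaving out each library gave 0 to 1. Against AC3174 DESeq2 called 250 genes and leaving out a library gave 0 to 1 (Hcrtr1 without AC3174 2, Zfp26 without combo 2). Against AC170222 DESeq2 called 263 and leaving out a library gave 0 to 1, and for the non-additivity DESeq2 called 302 and leaving out a library gave 0 to 1. The replicate block gave 0 calls in these 4 comparisons. For the difference from MBH (3 genes) DESeq2 called 852 and limma-voom 22, the replicate block left 2, and leaving out a library gave 0 to 92, the highest without MBH saline 3 (24 without MBH saline 1). For the difference between IP and input (7 genes) DESeq2 called 1800 and limma-voom 30, the replicate block on the homogenate left 0, the library set as a covariate left 4, and leaving out a library gave 2 to 82. The cause was not tested in any of these. The fit of only the groups compared is the same as the reported one for the non-additivity and was not run.

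Of the genes named, the 24 chosen by smallest p kept their sign in all alternatives, which their selection for no overlap in these libraries favours. Fos ranged from 0.74 to 1.12 with a lowest adjusted p of 0.122 (DESeq2). Besides those 24, DESeq2 called Glp1r, Hspa8, Alox12b, Ccn1, Ntsr1, Htr3a, Slc6a2 and Fam167a for the combination against saline. Limma-voom reversed Cckar (1.48), Nr4a1 (0.14), Dusp5 (-0.088) and Itpr1 (-0.42). The library set as a covariate reversed Jun (-0.093), Nr4a2 (-0.21), Dusp5 (-0.079), Itpr1 (-0.55) and Ppp3ca (-0.0015). The replicate block reversed Nr4a3 (-0.46). Leaving out the 3 libraries rich in Ttr reversed Gcg (-0.29), Nr4a2 (-0.054) and Hoxb7 (-0.64). Leaving out 1 library gave ranges that cross 0 for Cck (-0.046 to 0.65), Egr4 (-0.11 to 0.99), Fosl1 (-0.14 to 10.63), Fosl2 (-0.81 to 1.61), Nr4a1 (-0.29 to 0.11), Nr4a2 (-0.19 to 0.37), Nr4a3 (-2.01 to 1.19), Dusp5 (-0.85 to 2.09), Hoxb7 (-0.055 to 2.49), Itpr1 (-0.13 to 1.46) and Pcsk1 (-0.12 to 1.36). Counts of 0 were common in genes under 5 CPM, although the shallowest of the 6 libraries held 29492622 counts. The cause of these zeros was not tested. Of 27 tested appetite receptors 15 reach that mean in a group, as do 3 of 6 Egr and Nr4a genes.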

Other observations

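Lists that belong to no result above are given as values of the combination against saline. Oligodendrocyte precursor genes (8 tested) had a median log2 difference of -0.13 and none at an unadjusted p under 0.05. Olig2, a transcription factor of that lineage, was at 3.63, 3.96 and 14.2 CPM in saline and 25.6, 10.1 and 44.2 CPM with the combination (1.88 ± 0.92, adjusted p = 0.891). Pericyte and smooth muscle genes (9, median 0.11), ependymal and tanycyte genes (9, median 0.05) and meningeal and fibroblast genes (10, median -0.01) had none at an unadjusted p under 0.05. The same held for 7 DNA mismatch repair genes (median -0.21), among them Mlh3 (0.86 ± 0.58), which was called for the difference between IP and input. Of 18 genes of the unfolded protein and integrated stress response 14 were negative, with a median of -0.09. The 1 at an unadjusted p under 0.05 was Trib3, a pseudokinase induced by Atf4, at 0 in saline and 0.243, 0.544 and 0 CPM with the combination. Ppp1r15a, a phosphatase subunit induced in that response, was at 31.6, 31.3 and 19.4 against 25.8, 61.3 and 47.2 CPM (0.71 ± 0.38). Of 18 inflammatory and interferon genes 8 were tested, 7 of them negative (median -0.46). Il6, Tnf, Ccl3, Ccl4 and Icam1 had 0 counts in all 6 libraries. The cholinergic list (12 tested) had a median of 0.07 and the list of GABA, glycine and glutamate identity (10) a median of -0.03.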
